A study of Mus musculus with 4 samples.

Results

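The planar cell polarity genes *Wnt5a*, *Fzd3*, *Fzd6*, *Ptk7*, *Celsr1*, *Celsr2*, *Celsr3*, *Vangl1*, *Vangl2* and *Prickle1* were taken by name, with no measured value in the rule. The genes were, however, chosen with earlier results of these data known. Each was read by 1 probe set that carried its symbol alone, so that 10 of the 35556 probe sets on the array, and 10 of the 19938 genes with such a probe set, are described. Planar cell polarity is the coordination of cells within the plane of an epithelium, and in the cochlea it is known for the narrowing and lengthening of the growing duct by convergent extension and for the common orientation of the hair cell bundles. Its core proteins sort to opposite sides of each cell, with Frizzled receptors on one side, Vangl and Prickle on the other and the cadherins of the Celsr family joining neighboring cells across the junction, while Wnt5a is a secreted ligand of the pathway and Ptk7 a transmembrane co-receptor.

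RNA came from whole cochleas at embryonic day 15, from *Meis2* flox/flox; *Pax2* Cre/+ mutants (2 arrays, replicates 1 and 2) and from wild-type embryos (2 arrays, replicates 2 and 3), and the comparison asks which transcripts differ once *Meis2* has been inactivated in the ear. Recombination by *Pax2* Cre starts in the ear primordium, so the mesenchyme, cartilage and vessels of the whole cochlea lie outside the targeted lineage. Neither the labels nor the methods say whether the wild-type embryos carried the Cre or a floxed allele, or whether an array held a single embryo or a pool, so all p-values measure only the spread between these arrays, which may be technical. Signals are on the log2 scale of robust multi-array analysis (RMA), so a difference of 1 is a doubling, and because probes differ in how well they bind, levels are compared between arrays and not between genes.

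Some properties of the arrays bear on every value below. *Meis2* itself read 9.61 and 9.80 in mutants and 9.64 and 9.38 in wild-type cochleas, a difference of 0.19 (adjusted p = 0.284 from limma). The signal of this probe set thus did not fall in mutants, and the genotype could not be checked with it. Whether its probes lie outside the deleted part was not tested. *Xist* was at 11.83 and 11.84 in mutants and at 5.54 and 11.51 in wild-type replicates 2 and 3, whereas the Y-linked gene *Uty* was at 4.68 and 4.52 in mutants and at 8.07 and 7.29 in wild-type cochleas. Wild-type replicate 3 thus held transcripts of both kinds, the genotypes differed in sex-linked transcripts, and the part of this in the results was not tested. The duct was represented on all arrays, with mean signals of 9 cochlear duct epithelium markers of 9.34 and 9.42 in mutants and 9.44 and 9.48 in wild-type cochleas. Of these 9, *Epcam* fell by 0.90, *Pax2* rose by 0.97 (limma adjusted p = 0.00392 and 0.0076) and 7 did not pass. Past the threshold of 0.05 on the adjusted p, which 37.3 percent of all probe sets passed, markers of other cell types were called as follows. Of 12 spiral ganglion neuron markers 6 were lower and none higher, with mean signals of 8.25 and 8.22 in mutants and 8.81 and 8.89 in wild-type cochleas. Of 9 skeletal muscle markers 8 were higher and none lower, with mean signals of 7.0 and 7.37 in mutants and 6.31 and 6.55 in wild-type cochleas. Prosensory and supporting cell markers (1 of 9 higher, 3 lower), periotic mesenchyme markers (1 of 8 higher, 3 lower), Schwann and satellite glia markers (1 of 5 higher, 2 lower) and erythroid markers (3 of 4 higher, 1 lower) were called in both directions. Otic capsule cartilage (2 of 8), hindbrain (2 of 5) and macrophage markers (1 of 6) had calls in the higher direction only. Of the 6 macrophage markers, however, 5 had negative differences, with a median of -0.24. The cartilage markers had 4 positive and 4 negative differences, with a median of 0.03. The hindbrain calls, *Lhx5* and *Hoxb1*, did not pass after median scaling (limma adjusted p = 0.0572 and 0.12). None of 6 endothelium markers was called, and hair cell markers are given further below. The part of these cell types in the results was not tested. In whole tissue, fewer cells of a type and less RNA per cell cannot be told apart.

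Of the 10 planar cell polarity genes, 5 rose in mutant cochleas, none fell, and 5 did not pass the test. The 5 that rose were *Celsr2*, *Celsr3*, *Fzd6*, *Prickle1* and *Ptk7*, with differences between 0.34 and 0.80 on the log2 scale, and none of the 10 reached a 2-fold difference. Differences are mutant minus wild-type. They come from a linear model (limma) that borrows information on the spread from the whole array, and a gene passed where its p-value, adjusted by Benjamini-Hochberg for all probe sets tested, was under 0.05. By this rule 37.3 percent of all probe sets passed, 21.6 percent of all being higher and 15.7 percent lower in mutants, which is the background against which 5 of 10 higher and 0 of 10 lower are to be read. That split depended on the scaling of the arrays, with 7695 probe sets higher and 5573 lower as deposited, and 5062 higher and 6439 lower once the array medians were set equal. The median difference was 0.37 over the 10 members and 0.11 over all probe sets. All 10 members had a mean signal above the median level of all probe sets. In a fit without the probe sets below that level, 29.6 percent of those tested were higher, with a median difference of 0.03. In that fit 6 of the 10 members were higher. On 8 of the 10 members both mutant arrays lay above both wild-type arrays, and on 1 they lay below. Non-overlap of this kind was common on these arrays, with 76.1 percent of all probe sets in either direction and 49.7 percent with the mutants above.

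**Figure D1:**
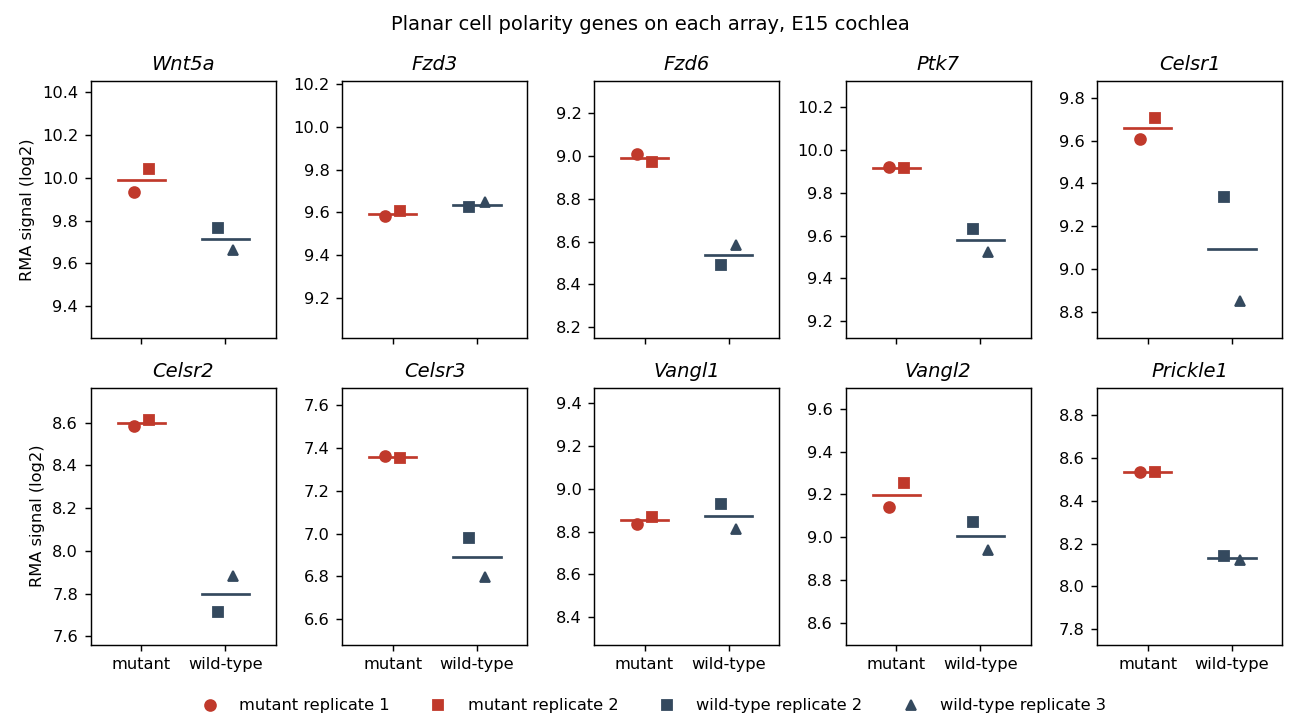
RMA signal on the log2 scale (y axis) of each gene in mutant and wild-type cochleas (x axis), with a point for each array and a line for the mean of the 2 arrays. Every panel has the same height on the log2 scale, around its own middle; the mutant arrays lie above the wild-type arrays for 8 genes, lie just below for *Fzd3* and overlap for *Vangl1*.

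The ligand *Wnt5a* signals through the receptor tyrosine kinase Ror2 and is needed for full extension of the mouse cochlea. It read 9.93 and 10.04 in mutants and 9.76 and 9.66 in wild-type cochleas. The mutant arrays were the higher by at least 0.17, but the difference of 0.28 did not pass the test (95% confidence interval 0.04 to 0.51, adjusted p = 0.0672 from limma).

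Among the receptors, *Fzd3* and *Fzd6* are the Frizzled pair whose joint loss in the mouse disturbs neural tube closure and the orientation of hair bundles. *Fzd6* read 9.01 and 8.97 in mutants and 8.49 and 8.59 in wild-type cochleas. No array of one genotype reached the other, and *Fzd6* rose by 0.45 (limma adjusted p = 0.0152, standard error 0.08), or 1.37-fold. *Fzd3* read 9.58 and 9.60 in mutants and 9.62 and 9.65 in wild-type cochleas. The mutant arrays were the lower by a gap of 0.02 alone, and the difference of -0.04 did not pass the test (95% confidence interval -0.24 to 0.16, adjusted p = 0.679 from limma). The *Fzd6* signal minus the *Fzd3* signal was -0.57 and -0.63 in mutants and -1.13 and -1.06 in wild-type cochleas, a difference of 0.50 with no overlap, for which a two-sided exact permutation test over the 4 arrays gave p = 0.333, the smallest it can give. *Ptk7*, a pseudokinase that acts with Vangl2 in the polarity of hair bundles, read 9.92 and 9.91 in mutants and 9.63 and 9.53 in wild-type cochleas, and rose by 0.34 (limma adjusted p = 0.0329, standard error 0.08). This was the smallest of the 5 increases, and it lay past the threshold only narrowly, with an adjusted p of 0.0775 after median scaling.

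The Celsr cadherins, the vertebrate relatives of Flamingo, bridge the membranes of neighboring cells and hold Frizzled and Vangl complexes in register. *Celsr2* read 8.59 and 8.61 in mutants and 7.71 and 7.88 in wild-type cochleas. The mutant arrays nearly coincided and stood 0.70 above the nearer wild-type array. *Celsr2* thus rose by 0.80 (limma adjusted p = 0.00563, standard error 0.09, 95% interval 0.56 to 1.04), or 1.74-fold, a difference greater in size than that of 88.9 percent of all probe sets. *Celsr3*, which in the mouse is best known for the guidance of axon tracts, read 7.37 and 7.35 in mutants and 6.98 and 6.80 in wild-type cochleas. The groups did not overlap and it rose by 0.47 (limma adjusted p = 0.0206, standard error 0.10). *Celsr1*, the member whose mutation in the mouse misorients hair cells and hair follicles, read 9.61 and 9.71 in mutants and 9.33 and 8.85 in wild-type cochleas. Its difference of 0.56 was the second in size among the members, but the wild-type arrays lay far apart (SD 0.34, n = 2) and the test was not passed (limma adjusted p = 0.0597, standard error 0.18, 95% interval 0.11 to 1.02). The value turned on that pair of arrays, since the difference of *Celsr1* was 0.81 without wild-type replicate 2 (limma adjusted p = 0.013) and 0.32 without wild-type replicate 3 (limma adjusted p = 0.0903).

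On the opposite side of the cell, Vangl proteins are multi-pass membrane proteins that recruit the cytoplasmic protein Prickle. *Vangl2*, the gene mutated in the Looptail mouse, read 9.14 and 9.25 in mutants and 9.07 and 8.94 in wild-type cochleas. The nearest arrays of the genotypes were 0.07 apart, and the difference was 0.19 (95% confidence interval -0.05 to 0.43, adjusted p = 0.166 from limma). *Vangl1* read 8.84 and 8.87 in mutants, inside the range of 8.81 to 8.93 that the wild-type arrays spanned. Its difference of -0.02 (95% confidence interval -0.24 to 0.20, adjusted p = 0.866 from limma) was the smallest in size of all members, and it was positive after repeated quantile normalization (0.06) and without wild-type replicate 2 (0.04). *Prickle1* had the tightest replicates, at 8.53 on both mutant arrays and at 8.14 and 8.12 in wild-type cochleas. It rose by 0.40 (limma adjusted p = 0.0173, standard error 0.08), or 1.32-fold.

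**Figure D2:**
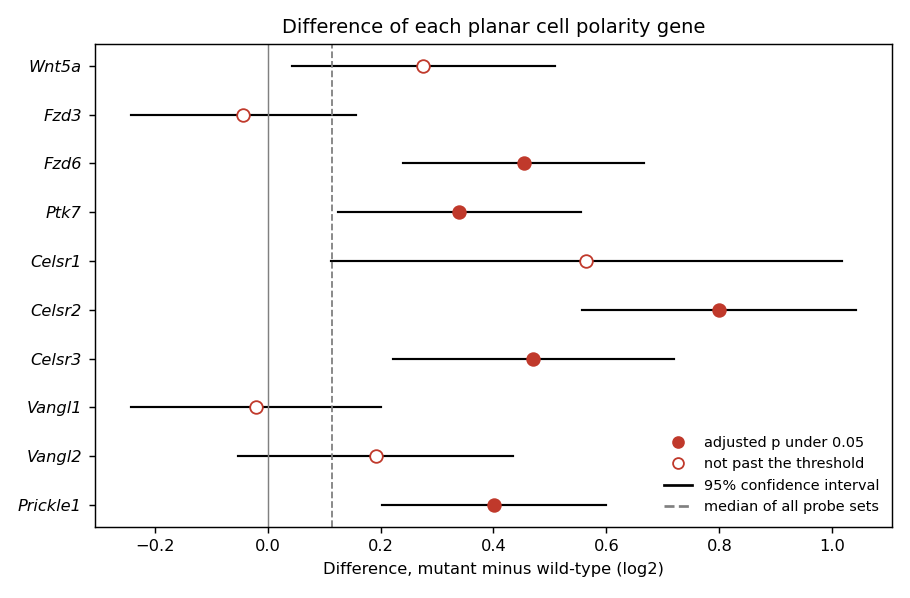
Mutant minus wild-type signal (log2, x axis) of each gene (y axis), with 95% confidence intervals from limma; filled points passed an adjusted p of 0.05 and open points did not. The dashed line is the median of all probe sets (0.11); *Celsr2* lies farthest from it at 0.80, and the intervals of *Fzd3*, *Vangl1* and *Vangl2* span 0.

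Relatives within a family were set against each other on each array. Of 4 pairs compared, *Fzd6* with *Fzd3*, *Vangl2* with *Vangl1* and *Celsr2* with *Celsr3* shifted against each other by 0.50, 0.21 and 0.33 without overlap (exact permutation p = 0.333 each, adjusted p = 0.444), and *Celsr2* with *Celsr1* by 0.23 with overlap (exact permutation p = 1). With 2 arrays against 2 this test cannot go below 0.333. Non-overlap was seen for 76.1 percent of single probe sets, and its share over other pairs of genes was not counted.

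Promoter sequences were at hand for 5 of the 10 genes. They cover 6 start sites, since *Prickle1* has several, and each runs from 250 bases before the start to 50 after it in RefSeq (GRCm38.p6). All were rich in G and C, at 60.7 to 76.3 percent, against a median of 52.7 percent over all 32851 promoters of this length, and their median count of CpG pairs was 23.5 against 7. Because *Meis2* encodes a homeodomain factor, the windows were searched on both strands for the Meis site TGACAG and for the Pbx-Hox-like site, TGATNNAT or AGATNNAT. Of all promoters 19.2 percent held the Meis site and 16.2 percent the Pbx-Hox-like site, and none of the 6 held either. The GC box GGGCGG, bound by Sp-family factors, was present in 5 of the 6, against 35.7 percent of all promoters, and the TATA box TATAAA in none, against 13.6 percent. By gene, 4 of 5 held a GC box, since *Prickle1* gave 2 of the windows. The part of the G and C content of these windows in such counts was not tested. A match or its absence concerns these letters in this window only. Shown here are 3 genes that rose, among them *Celsr2* with the greatest rise, and *Vangl2*, which did not pass the test, with GC boxes of either strand in capitals. The windows are chr3:108415530-108415829 (minus strand) for *Celsr2*, chr9:108825795-108826094 (plus strand) for *Celsr3*, chr15:93595853-93596152 (minus strand) for *Prickle1* and chr1:172027246-172027545 (minus strand) for *Vangl2*.
Celsr2: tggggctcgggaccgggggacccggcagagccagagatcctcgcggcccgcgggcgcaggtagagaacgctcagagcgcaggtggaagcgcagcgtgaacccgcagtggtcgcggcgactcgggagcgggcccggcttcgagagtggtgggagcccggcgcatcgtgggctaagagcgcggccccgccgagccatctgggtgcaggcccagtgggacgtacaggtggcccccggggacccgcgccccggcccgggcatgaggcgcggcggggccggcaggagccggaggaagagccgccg
Celsr3: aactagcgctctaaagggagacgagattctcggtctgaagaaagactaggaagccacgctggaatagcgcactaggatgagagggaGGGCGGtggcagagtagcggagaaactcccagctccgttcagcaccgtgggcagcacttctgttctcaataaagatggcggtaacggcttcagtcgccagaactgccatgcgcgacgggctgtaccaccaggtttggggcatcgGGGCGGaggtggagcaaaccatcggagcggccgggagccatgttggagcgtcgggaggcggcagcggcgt
Prickle1: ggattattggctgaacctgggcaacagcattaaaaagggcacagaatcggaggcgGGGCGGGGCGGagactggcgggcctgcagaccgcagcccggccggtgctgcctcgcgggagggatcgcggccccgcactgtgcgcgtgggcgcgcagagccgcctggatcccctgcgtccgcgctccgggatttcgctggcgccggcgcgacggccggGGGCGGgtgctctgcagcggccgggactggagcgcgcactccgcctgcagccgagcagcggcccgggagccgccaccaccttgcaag
Vangl2: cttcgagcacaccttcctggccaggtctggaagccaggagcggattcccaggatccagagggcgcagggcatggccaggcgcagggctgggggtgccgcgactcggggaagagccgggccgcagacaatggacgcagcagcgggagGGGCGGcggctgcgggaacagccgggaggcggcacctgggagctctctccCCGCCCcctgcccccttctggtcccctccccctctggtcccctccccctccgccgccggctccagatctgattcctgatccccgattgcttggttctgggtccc
In this window *Celsr2* held 40 CpG pairs and no GC box, *Celsr3* 25 pairs and 2 boxes, *Prickle1* 39 pairs and 3 boxes and *Vangl2* 21 pairs and 2 boxes. The other *Prickle1* window, not shown, held 20 pairs and 2 boxes.

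The wider pathway was described with 6 lists of genes by role, of which 68 of 71 genes had a probe set. Of these 68, 16 were higher and 11 lower past the threshold and 41 did not pass, with a median of 0.14, beside 21.6 percent higher, 15.7 percent lower and a median of 0.11 over all probe sets. The balance moved with the scaling, to 11 higher and 13 lower after median scaling and 21 higher and 10 lower after repeated quantile normalization. Differences between lists were not tested.

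Frizzled receptors beside *Fzd3* and *Fzd6*, together with the Dishevelled proteins that relay their signal, had a median of 0.44, with 7 of 11 higher and 1 lower past the threshold. *Dvl2*, a Dishevelled that acts in cochlear extension in the mouse, read 9.20 and 9.17 in mutants and 8.49 on both wild-type arrays, and rose by 0.70 (adjusted p = 0.00495 from limma). *Fzd9* rose by 0.82, *Fzd2* by 0.60 and *Fzd8* by 0.52 (adjusted p = 0.00654, 0.0187 and 0.0152 from limma). The single gene of this list that fell past the threshold was *Fzd4*, a receptor for Norrin in vessels, by 0.46 (adjusted p = 0.0275 from limma). *Fzd7* differed by -0.46 without overlap between the groups but did not pass the test (adjusted p = 0.0519 from limma). *Dvl1* differed by 0.35 and *Fzd10* by -0.055, also without passing (adjusted p = 0.051 and 0.669 from limma). Of 10 further Wnt ligands and co-receptors, 2 were higher and none was lower past the threshold, with a median of 0.16. *Ror2*, the receptor of Wnt5a, read 9.85 and 9.66 in mutants and 8.94 and 8.92 in wild-type cochleas and rose by 0.83 (limma adjusted p = 0.00587, standard error 0.10), while *Wnt7b* rose by 0.35 (adjusted p = 0.037 from limma, and 0.0779 after median scaling).

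Fat and Dachsous are giant cadherins that make up a second polarity system, in which Dachsous1 is a ligand of Fat4. Of 6 genes of this system measured, which include the kinase gene *Fjx1*, 3 were higher and none lower past the threshold, with a median of 0.34. *Dchs1* read 11.45 and 11.46 in mutants and 10.71 and 10.42 in wild-type cochleas and rose by 0.89 (limma adjusted p = 0.00735, standard error 0.12). *Fat2* rose by 0.72 and *Fat1* by 0.38 (adjusted p = 0.0298 and 0.0321 from limma, with *Fat1* at 0.0701 after median scaling), and *Fat4* differed by 0.29 (adjusted p = 0.0807 from limma). Also short of the threshold, *Fjx1* differed by -0.28 and *Fat3* by -0.02 (adjusted p = 0.099 and 0.888 from limma). *Fat3* had 15 probe sets, and this value is that of the one with the highest mean alone.

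Of 12 further core cytoplasmic and trafficking genes, 3 were higher and 1 was lower past the threshold, with a median of 0.19. The Prickle relatives *Prickle3* and *Prickle4* rose by 0.47 and 0.43, and *Gipc1*, an adaptor that binds the Vangl2 tail, rose by 0.45 (adjusted p = 0.0155, 0.0173 and 0.0135 from limma). *Smurf2*, a ubiquitin ligase that marks Prickle for degradation in the mouse, fell by 0.45 (limma adjusted p = 0.0162). Over the mean of its 2 probe sets the difference of *Smurf2* was -0.80.

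Of the intracellular effectors, 4 of 12 were lower and none was higher past the threshold, with a median of 0.01. *Daam1*, a formin that binds Dishevelled and assembles actin filaments, fell by 0.60, and the Jun kinases *Mapk8* and *Mapk9* fell by 0.55 and 0.53 (adjusted p = 0.00788, 0.00934 and 0.0143 from limma). The small GTPases *Rhoa*, *Rac1* and *Cdc42* differed by -0.09, 0.24 and 0.07 and did not pass the test (adjusted p = 0.46, 0.0705 and 0.619 from limma). For *Rhoa*, the value is that of the 1 of its 2 probe sets with the higher mean.

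The machinery that places the kinocilium and bundle inside each hair cell had 1 of 17 genes higher and 5 lower past the threshold, with a median of -0.11. *Pard6a*, a polarity scaffold, read 7.76 and 7.78 in mutants and 6.85 and 6.91 in wild-type cochleas, and rose by 0.89 (adjusted p = 0.00364 from limma). Its kinase partner *Prkci* fell by 0.52, the G protein subunit *Gnai1* fell by 0.95 and *Gpsm2*, which anchors such subunits at the bare zone of the hair cell surface, fell by 0.40 (adjusted p = 0.0116, 0.0152 and 0.0226 from limma). *Gnai3*, the G protein subunit best known for bundle placement, fell by 0.48 (adjusted p = 0.0308 from limma). Hair cell markers themselves had 5 of 10 higher and 2 lower past the threshold, with mean signals of 7.52 and 7.60 in mutants and 7.27 and 7.45 in wild-type cochleas, and their part in these values was not tested.

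**Figure D3:**
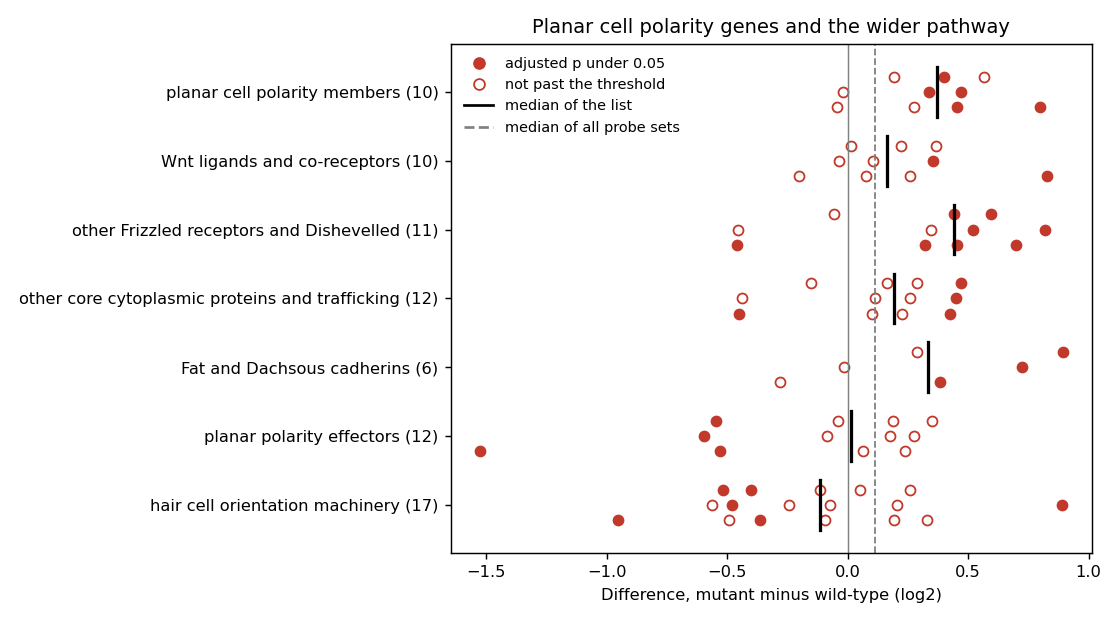
Mutant minus wild-type signal (log2, x axis) for the planar cell polarity genes and each list of the wider pathway (y axis, number of genes in brackets). Points are genes, filled where the adjusted p was under 0.05, black bars are the medians of the lists and the dashed line is that of all probe sets; the list of other Frizzled and Dishevelled genes has a median of 0.44, and that of hair cell orientation machinery has a median of -0.11.

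The calls of the planar cell polarity genes differed in how they fared with an array left out, as the plot of those differences shows. The median difference of the 10 members was 0.37 without *Meis2* mutant replicate 1 and 0.37 without *Meis2* mutant replicate 2. It was 0.40 without wild-type replicate 2 and 0.31 without wild-type replicate 3. Over all probe sets the median difference was 0.11, 0.11, 0.10 and 0.13 in these runs. Of the 10 genes only *Celsr2* passed in every run (adjusted p of 0.0134 to 0.0421 from limma), with differences of 0.71 to 0.88. *Fzd6* kept its call without either wild-type array and lost it without either mutant array (adjusted p = 0.0854 and 0.0791 from limma), although its difference stayed between 0.41 and 0.50. *Prickle1* (0.39 to 0.41) and *Ptk7* (0.29 to 0.39) likewise held their size but passed only in the run without wild-type replicate 2, and so did *Celsr3* (0.38 to 0.56). After median scaling 4 of the 5 genes that rose still passed, all but *Ptk7*, and the share of all probe sets called higher was 14.2 percent. Among the increases named in the wider lists, leaving out an array gave differences of 0.75 to 1.04 for *Dchs1* and 0.685 to 0.714 for *Dvl2*. The ranges were 0.74 to 0.90 for *Fzd9* and 0.86 to 0.92 for *Pard6a*. How the calls over all probe sets fared across the same runs was not counted.

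**Figure D4:**
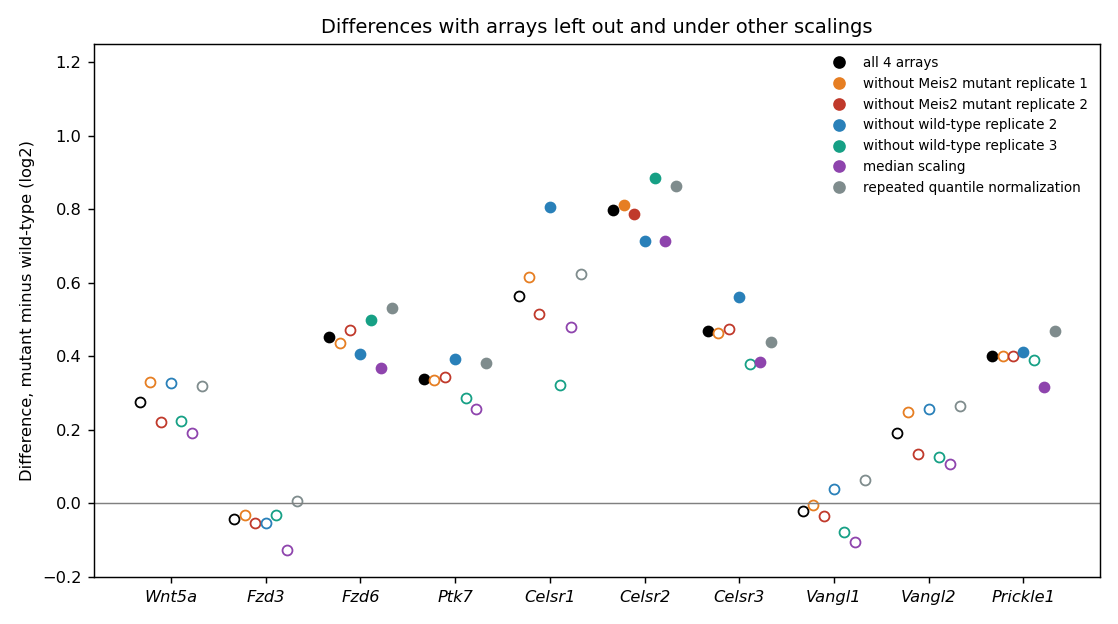
Mutant minus wild-type signal (log2, y axis) of each gene (x axis) with all 4 arrays, with each array left out and under other scalings of the arrays. Filled points passed an adjusted p of 0.05; *Celsr2* is filled throughout, at 0.71 to 0.88, *Celsr1* is filled solely without wild-type replicate 2, and *Wnt5a*, *Fzd3*, *Vangl1* and *Vangl2* are open throughout.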

How the data were processed

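RNA of 4 samples was labeled and hybridized to Affymetrix Mouse Gene 1.0 ST arrays. The deposited log2 values are the authors' RMA signals, which are background-corrected and normalized within and between arrays. The submitters' processing notes name RMA, without a version, and the build mm8, and no coordinates of probe sets are printed. Symbols came from the platform annotation (21789 probe sets with 1 symbol, 1621 with several, 12146 unnamed). Medians were 6.73 and 6.72 on the mutant and 6.63 and 6.65 on the wild-type arrays, and the number of arrays limits the precision (2 residual degrees of freedom and 2.91 from the prior).

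All 35556 probe sets were fitted with limma 3.58.1 in R 4.3.3, with no filter and no covariate, and the code was tested on simulated data. The methods name significance analysis of microarrays, which was not run here, since 4 arrays allow only 6 relabelings. For genes with several probe sets in the wider lists, the one with the highest mean was used. Named genes were the members, checks of the samples and up to 4 genes of each wider list. The latter were those with the smallest p among genes past the threshold without overlap between the groups. Their lack of overlap was thus a condition of the choice. *Fzd4*, *Fzd7*, *Fzd10*, *Dvl1*, *Fat3*, *Fat4*, *Fjx1*, *Gnai3* and the small GTPases were added after their values were seen. A named gene of the effector list is not reported here. The members and lists were chosen with earlier results of these data known. Alternatives were other priors, median scaling, repeated quantile normalization, a filter at the median level, probe sets with 1 symbol, array weights, gene means, a threshold of 0.1 and leaving out each array. When an array is left out, the lone array of its genotype is assumed to vary like the others.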

Additional observations from a re-analysis of the deposited data

How the results depend on the processing

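The count of planar cell polarity genes past the threshold was 5 with all arrays and ranged from 1 to 6 when an array was left out. Over all probe sets the count of 13268 ranged from 4611 to 10895, with the lowest value without *Meis2* mutant replicate 2, and in the wider pathway the count of 27 ranged from 7 to 25. Leaving out an array removes a residual degree of freedom, and what else lowered the counts was not tested. Median scaling gave 4 planar cell polarity genes, leaving out dim probe sets gave 6 (29.6 percent of all tested being higher), testing those with 1 symbol gave 7 (30.4 percent) and a threshold of 0.1 gave 7 (17753 of all 35556 past it in either direction). Of all called probe sets 42 percent were lower, and 56 percent after median scaling. *Vangl1* turned positive after repeated quantile normalization (0.0628), and ranged from -0.0782 to 0.0384 with an array left out. *Fzd3* turned positive after repeated quantile normalization (0.0056). No other member changed direction under any of the 12 alternatives run for each. *Celsr1* passed without dim probe sets, with 1-symbol probe sets, with gene means and without wild-type replicate 2, and *Wnt5a* with 1-symbol probe sets and gene means; both last settings test fewer features. No paired analysis was possible because the labels do not pair arrays of the genotypes.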
